A study of Mus musculus with 8 samples.

Results

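The class I phosphoinositide 3-kinases are made of a catalytic and a regulatory subunit, and the array was searched for the 4 catalytic genes Pik3ca, Pik3cb, Pik3cd and Pik3cg and the 3 regulatory genes Pik3r1, Pik3r2 and Pik3r3. Every probe set, a group of short probes against 1 transcript, whose platform annotation names exactly 1 of these 7 genes was taken, which gave 21 of the 45037 probe sets and 7 of the 18193 genes named on the array. One further probe set names Pik3r2 together with another gene and was left out. The family was chosen by an earlier result of these data, a lower value of 1 Pik3cd probe set in the RA group, so the differences between the groups are given for its members as a description, without a test.

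These enzymes are recruited to activated receptors at the cell membrane, where they phosphorylate the lipid PIP2 to PIP3. PIP3 recruits kinases such as Pdpk1 and Akt, and phosphatases such as Inpp5d convert it again. In neurons the pathway acts downstream of insulin and neurotrophin receptors in growth, survival and synaptic plasticity, while Pik3cd and Pik3cg are best known from leukocytes.

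RNA was taken from the hippocampus of male 3 × Tg-AD mice, which carry mutant human amyloid precursor protein and tau transgenes and a mutant presenilin 1. The control group received a normal diet and the RA group the same diet with 0.5% rosmarinic acid, a plant polyphenol, for 8 months, and all mice were 10 months old. Both groups carry all mutations, and no wild-type group was arrayed. Each group has 4 arrays, and the Methods name 4 mice per group but also pooled RNA, so p-values measure only the spread between these arrays.

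The deposited values are log2 summaries by FARMS, a factor analysis that returns almost a constant where the probes of a set carry no common signal. A probe set was counted as measured where its SD over the 8 arrays was above 0.01, which held for 3758 of 45037 probe sets (8.34%). Array medians lay at 5.829 to 5.831 for control and at 5.833 to 5.835 for RA. The RA mean was the higher one in 73.1% of the measured probe sets (median log2 fold change 0.07).

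Only 2 of the 21 subunit probe sets (9.52%) were measured, 1 of Pik3cd and 1 of Pik3r1. The remaining 19 had SDs of 8.38e-05 to 0.000384, while the lower of the measured SDs was 0.124, so no subunit probe set lay near the limit. For Pik3ca, Pik3cb, Pik3cg, Pik3r2 and Pik3r3 these arrays thus give no measure of a difference between the groups. Such a constant comes from the summary method and does not show equal transcript levels.

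**Figure D1:**
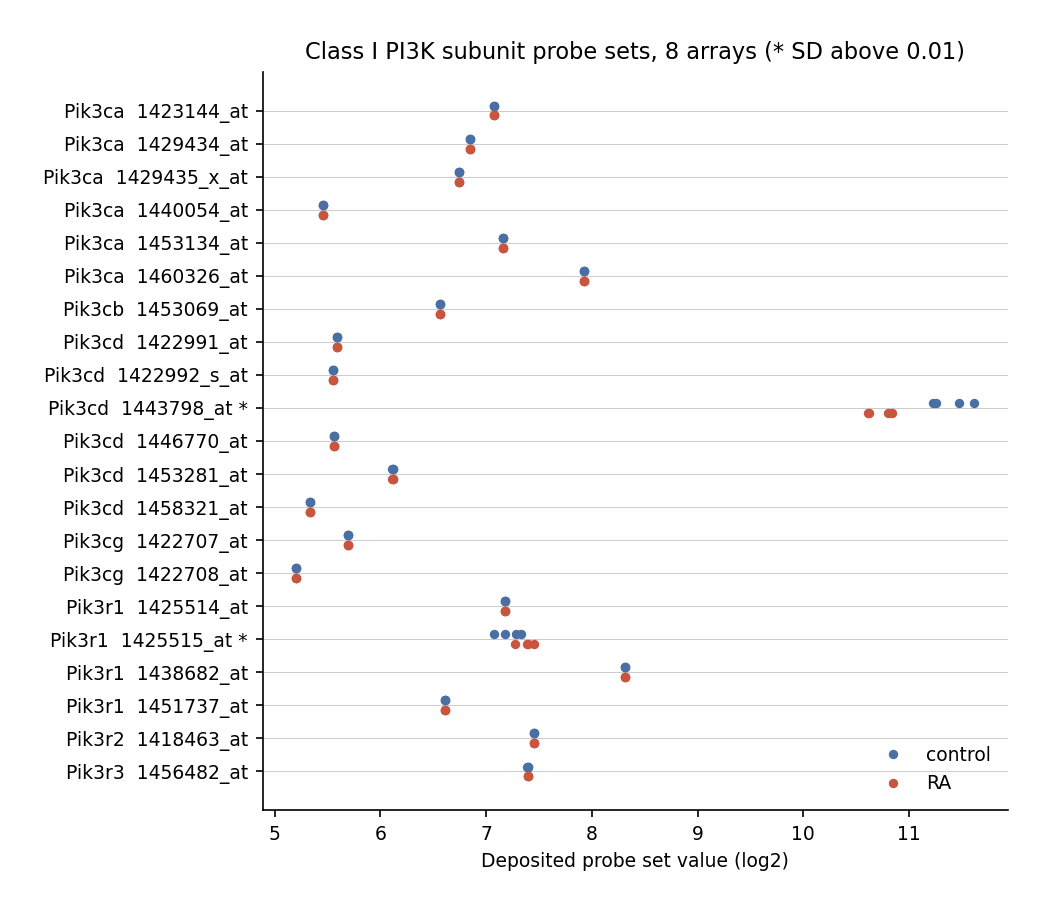
Deposited log2 values (x axis) of the 21 probe sets of the 7 subunit genes (y axis), with a point for each of the 4 control and 4 RA arrays and a star for an SD above 0.01. The points of 19 probe sets fall on each other, and the starred Pik3cd probe set lies between 10.61 and 11.62.

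Pik3cd encodes the catalytic subunit p110 delta, and its measured probe set, 1443798_at, had a lower value in every RA array than in any control array. Its log2 value was 11.26, 11.47, 11.62 and 11.22 in control 1 to control 4, and 10.84, 10.63, 10.80 and 10.61 in RA 1 to RA 4. The groups did not overlap, with a distance of 0.38 between the nearest arrays of the groups, control 4 and RA 1. The control mean was 11.39 ± 0.185 and the RA mean 10.72 ± 0.117 (SD, n = 4 each). The log2 fold change was -0.67 (standard error 0.105 from limma), a value 0.627 times that of the control group. Leaving out any 1 array gave log2 fold changes from -0.73 to -0.60.

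The other 5 probe sets of Pik3cd did not show this difference, and all were nearly constant. Their log2 values lay between 5.334 and 6.115 on all arrays, their SDs between 8.38e-05 and 0.000236, and their log2 fold changes between -0.00012 and 0.00014. These 5 lay around the array medians of 5.829 to 5.835, and 1443798_at lay far above them. Probes differ in how brightly they bind, so this distance is not read as a difference in transcript level, and its cause was not tested. Of the 6 probe sets, 1422991_at and 1422992_s_at are annotated with a RefSeq mRNA of Pik3cd, and both were among the constant ones. The measured probe set and the remaining 3 are annotated with expressed sequence tags, single reads of cDNA clones. The lower Pik3cd value therefore rests on 1 of 6 probe sets and on its annotation to this gene. The probe sequences were not used here, so where its probes lie in the gene was not checked.

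A single measured probe set is common on these arrays. Of 1751 genes with 2 or more probe sets and at least 1 measured, 1096 (62.6%) had exactly 1 measured. Of 79 genes with 6 probe sets and at least 1 measured, 41 had exactly 1. Among 175 genes with several probe sets and at least 1 called lower, 159 (90.9%) had exactly 1 called lower.

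Pik3r1 encodes the regulatory subunit p85 alpha, which holds the catalytic subunit inactive until it binds phosphorylated tyrosines of a receptor or adaptor. Its measured probe set, 1425515_at, had log2 values of 7.28, 7.18, 7.08 and 7.33 in control 1 to control 4, and of 7.27, 7.40, 7.39 and 7.45 in RA 1 to RA 4. The groups overlapped, with 3 of the 4 RA arrays above every control array and RA 1 below control 1 and control 4. The control mean was 7.22 ± 0.114 and the RA mean 7.38 ± 0.0763 (SD, n = 4 each), which gave a log2 fold change of 0.16 (standard error 0.0657 from limma). It ran from 0.11 to 0.20 when 1 array was left out.

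The other 3 Pik3r1 probe sets were nearly constant at log2 values between 6.610 and 8.313, with log2 fold changes from -0.00031 to 0.00017. Of these, 1425514_at and 1451737_at are annotated with the same mRNA as the measured probe set. Probe sets assigned to the same transcript thus differed in whether FARMS found a signal shared by their probes.

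**Figure D2:**
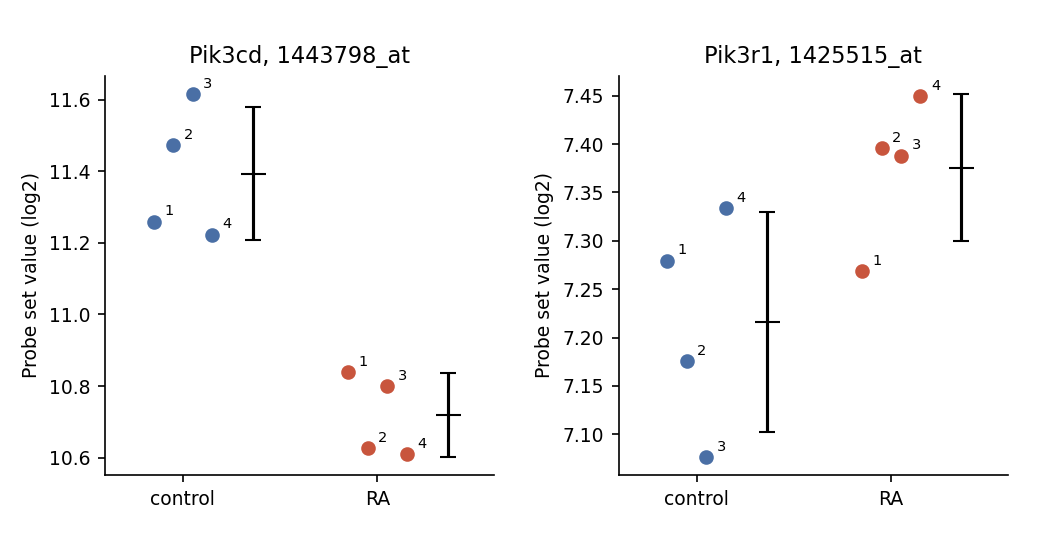
Log2 values (y axis) of the measured probe sets of Pik3cd (left) and Pik3r1 (right) in the control and RA groups, with a numbered point for each array and the mean ± SD (n = 4) beside it. The groups are apart for Pik3cd, at 10.61 to 10.84 in RA and 11.22 to 11.62 in control, and overlap for Pik3r1.

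Pik3ca and Pik3cb encode the widely expressed catalytic subunits p110 alpha and p110 beta. The 6 probe sets of Pik3ca had constant values with means from 5.457 to 7.927, and the only probe set of Pik3cb lay at 6.560 in both groups. Pik3cg encodes p110 gamma, which is activated by G protein-coupled receptors, and its 2 probe sets had means of 5.206 to 5.694. The regulatory subunits p85 beta and p55 gamma, encoded by Pik3r2 and Pik3r3, have 1 probe set each, with means of 7.45 and 7.39. Over the 19 unmeasured probe sets the log2 fold change ran from -0.00052 to 0.00017, with 12 below and 7 above 0. In 2 of these, the Pik3ca probe sets 1429434_at and 1429435_x_at, every RA value lay below every control value, which held for 3.03% of all unmeasured probe sets. Both are annotated with the same sequence. Their log2 fold changes were -0.00052 and -0.00021, far under the limit on the SD, and they are not counted as measured.

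All probe sets were tested together with the rank product, which ranks all probe sets in each of the 16 pairs of 1 RA and 1 control array and calls a probe set where the estimated proportion of false positives is under 0.05. Of the 21 subunit probe sets, 1 was called lower, 1443798_at of Pik3cd, and none was called higher. Of all 45037 probe sets, 0.568% were called lower and 0.904% higher. All calls fell among the 3758 measured probe sets, of which 6.81% were called lower and 10.8% higher. In 2.87% of the measured probe sets every RA value lay below every control value. Because the Pik3cd value led to the choice of the family, nothing is read from its call beside these shares. Among the 256 probe sets called lower, its log2 fold change was the 12th largest in size. limma called none of the 45037 probe sets at an adjusted p under 0.05, with a lowest adjusted p of 0.252, and gave 4553 an unadjusted p under 0.05.

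The deviations of Pik3cd and Pik3r1 from their group means, which the choice of the family did not use, ran in opposite directions. Within the control group, control 3 had the highest Pik3cd and the lowest Pik3r1 value, and control 4 had the lowest Pik3cd and the highest Pik3r1 value. Within the RA group, RA 1 had the highest Pik3cd and the lowest Pik3r1 value, and RA 4 had the reverse. Over the 8 arrays the deviations gave Pearson r = -0.94 (exact permutation test within groups, 2-sided p = 0.00174, and 0.00521 after adjustment over 3 relations) and Spearman rho = -0.98 (exact permutation test, p = 0.00347, adjusted 0.0104). Without control 3 and control 4, the arrays farthest from the median Pik3cd deviation, r was -0.86 over 6 arrays. No correlation over the undivided arrays is given, since the groups were apart in Pik3cd. This relation was chosen after the values were seen, and the p-values and their adjustment over 3 relations do not allow for that choice.

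The same within-group pattern was shared by many of the probe sets called lower. Of the other 255 probe sets called lower, 76 (29.8%) had deviations from their group means with r of at least 0.8 to those of Pik3cd, against 2.90% of the other 3757 measured probe sets. The median r was 0.67 among the probe sets called lower, -0.33 among those called higher and -0.11 among all measured. For Pik3r1, 11.7% of the probe sets called lower had an r of -0.8 or below, against 0.905% of the measured ones. These points share the same 8 arrays, and the shares are a description.

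By its values over the 8 arrays, Pik3cd was most like Scoc, Araf, a kinase of the Raf family, and Npm1, a nucleolar chaperone (Pearson r = 0.99, 0.98 and 0.98 over 8 arrays, among 3408 measured probe sets that name 1 gene). All of them were called lower, with groups apart, at log2 fold changes of -0.57, -0.70 and -0.54, and a difference between the groups alone raises such an r. By deviations from the group means, it was most like Npm1 (r = 0.97), the membrane protein Serinc1 (r = 0.97, log2 fold change -0.67) and the lipid carrier Scp2 (r = 0.96, log2 fold change -0.44). Pik3r1 was most like the cytoskeletal linker Dst (r = 0.98, log2 fold change 0.13), the astrocyte enzyme Aldh1l1 (r = 0.96, log2 fold change 0.23) and Appbp2 (r = 0.96, log2 fold change 0.24). By deviations from the group means it was most like the kinase Sik2, Dst and Rasl10a (r = 0.97, 0.97 and 0.94).

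Spiked-in control transcripts, which the manufacturer's protocol adds to every hybridisation in fixed amounts, also differed between the groups. Of their 18 probe sets for bioB, bioC, bioD and cre, 11 were measured, all for bioB, bioC or bioD and none for cre. Several are of the same transcript, so they are not 11 separate controls. All 11 had the higher mean under RA, beside 73.1% of all measured probe sets. The mean deviation of these 11 from their averages was -0.034, -0.046, -0.184 and 0.007 in control 1 to control 4, and 0.059, 0.108, 0.065 and 0.026 in RA 1 to RA 4. The groups did not overlap, with a difference of 0.13 on the log2 scale (exact permutation test, 2-sided p = 0.0286, the smallest that 4 against 4 arrays allow, and 0.0571 after adjustment over 2 sets of controls). The poly-A controls, which are added to the RNA before labelling, overlapped, with -0.326 to 0.096 for control and -0.100 to 0.303 for RA (exact permutation test, p = 0.743).

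The array with the lowest hybridisation controls, control 3, had the highest Pik3cd and the lowest Pik3r1 value. Within groups the deviations of these controls gave r = -0.71 with Pik3cd and r = 0.68 with Pik3r1 (exact permutation tests, 2-sided p = 0.0851 and 0.132, adjusted 0.128 and 0.132, with Spearman rho = -0.69 and 0.60, p = 0.102 and 0.184, adjusted 0.154 and 0.184). Both rested on control 3 and control 4, as r was -0.16 and -0.04 without these. With the controls as a covariate, the log2 fold change was -0.45 (standard error 0.130) for Pik3cd and 0.03 (standard error 0.0854) for Pik3r1, each with 5 residual degrees of freedom. The covariate was chosen after seeing the data. The hybridisation controls and the diet move together, and the part of either in the Pik3cd value cannot be told apart here.

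**Figure D3:**
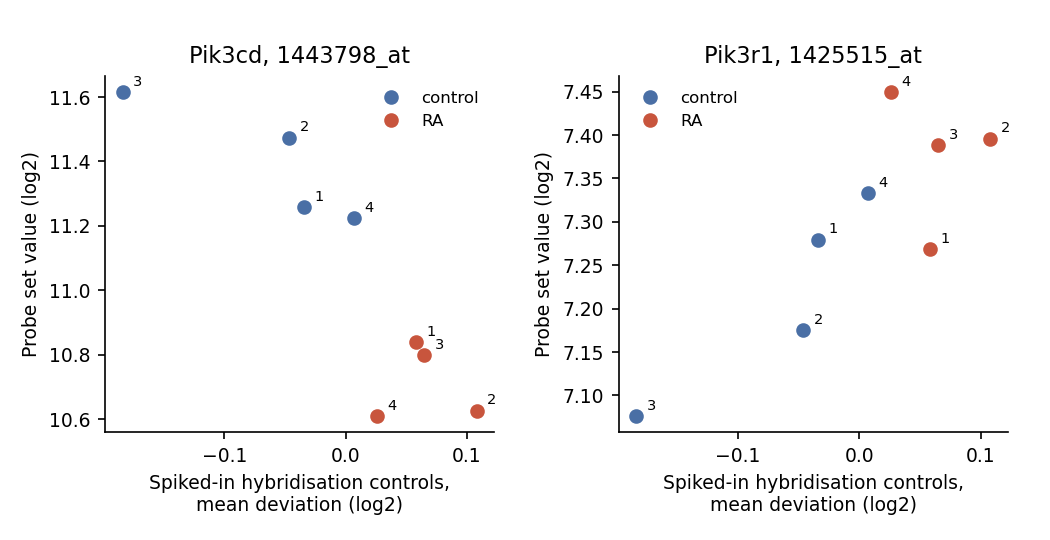
Log2 values of the measured probe sets of Pik3cd (left) and Pik3r1 (right) on the y axis against the mean deviation of 11 hybridisation control probe sets (x axis, log2), with a numbered point for each array. The RA arrays lie right of all control arrays, and control 3 lies at -0.184, far to the left.

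None of the 9 lists of cell type markers parted the groups in its mean deviation. The measured microglial probe sets (10 of 26, for 8 of 16 genes such as Csf1r, C1qa and P2ry12) had mean deviations of -0.246 to 0.054 (control) and -0.057 to 0.235 (RA). Of the lymphocyte and leukocyte markers, 3 of 19 probe sets were measured, for Ptprc, S100a8 and S100a9, and none for Cd3d, Cd3e, Cd79a or Cd79b. Their means were -0.165 to 0.154 and -0.132 to 0.136. Markers of hippocampal neurons such as Camk2a, Prox1 and Neurod6 (29 of 40 probe sets measured) lay at -0.332 to 0.242 and -0.340 to 0.180. Of these, 6 were called lower and none higher. They were of C1ql3 (log2 fold change -0.78, limma standard error 0.109), Snap25, Neurod6 and Dsp. Snap25 had -0.37 (standard error 0.162) and -0.21 (standard error 0.0539). For Neurod6 (-0.30, standard error 0.468) and Dsp (-0.20 and -0.17, standard errors 0.598 and 0.589) the standard errors exceeded the differences. Measured probe sets of the list without a call went both ways, above 0 for all of Camk2a and below 0 for all of Prox1. Over all measured probe sets, 6.81% were called lower and 10.8% higher. The part of these 6 in the Pik3cd value was not tested. Astrocyte markers (13 of 34 measured) lay at -0.130 to 0.026 and 0.017 to 0.116, with 4 probe sets called higher and an overlap between control 4 and RA 3. In whole tissue, fewer cells of a type and less RNA per cell cannot be told apart.

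Choroid plexus markers (16 of 18 measured) were far higher in control 3, RA 3 and RA 4, at 1.172 to 1.824. In control 1, control 2, control 4 and RA 2 they lay at -1.311 to -1.073. RA 1 lay between these at 0.110, where the Ttr probe sets were high, at 11.25 to 12.05. Other markers in RA 1, such as Kl (6.45) and Aqp1 (5.35), lay nearer to control 1 (5.67 and 5.18) than to control 3 (8.47 and 6.73). The mean deviations of oligodendrocyte markers (19 of 23 measured) ran from -0.648 to 0.541 (control) and from -0.792 to 0.431 (RA), those of endothelial markers (2 of 13) from -0.235 to 0.039 and from -0.117 to 0.417. For the striatal (6 of 16) and thalamic markers (17 of 28), which tell of tissue beside the hippocampus, they ran from -0.370 to 0.388 and from -0.339 to 0.098 under control, and from -0.204 to 0.294 and from -0.171 to 0.405 under RA. The rank product called all 16 measured choroid plexus probe sets, 12 of 17 thalamic and 1 of 2 endothelial ones higher and none of these lists lower. Over all measured probe sets, 10.8% were called higher and 6.81% lower. The largest of the choroid plexus log2 fold changes, 1.91 for a Ttr probe set, had a standard error of 1.88. The rank product called 3 of the oligodendrocyte list lower and 1 higher, and 1 of the striatal list lower (Pde10a, log2 fold change -0.42) and 1 higher. The part of these cell types in the Pik3cd value was not tested.

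Of 111 further genes of the pathway, 102 have probe sets of their own on the array, 252 in all, of which 35 (13.9%) were measured, for 22 genes. The rank product called 2 of the 252 higher, 1 lower and 249 neither, which is no more than the 0.904% higher and 0.568% lower over all probe sets. The median log2 fold change was 0.08 over the 35 measured probe sets, close to the 0.07 over all measured probe sets, with 29 above and 6 below 0. limma called none, with a lowest adjusted p of 0.298, and gave 21 an unadjusted p under 0.05. None of these 21 was a measured probe set, and the lowest adjusted p also came from nearly constant ones.

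Receptors and their adaptors, which recruit the regulatory subunits, held both higher calls. Irs4, an insulin receptor substrate that docks the enzyme, had log2 values of 5.15 to 5.66 in the control group and of 6.38, 6.20, 5.60 and 5.33 in RA 1 to RA 4. It differed by 0.48 on the log2 scale (limma standard error 0.269 and adjusted p = 0.586), and it lost its call without RA 1 or RA 2. These values are of the probe set 1441429_at, and those of the control group lay below the array medians. The other Irs4 probe set, 1422248_at, which is annotated with a RefSeq mRNA, was nearly constant (log2 fold change -0.00037). Pdgfra, the receptor for platelet-derived growth factor that marks oligodendrocyte precursors, had values of 7.56 to 7.93 and 7.84 to 8.29, 0.26 apart in their means on the log2 scale (limma standard error 0.126 and adjusted p = 0.539). Its call was lost without any 1 RA array, without control 2 or without control 3. The other Pdgfra probe sets, 1421916_at and 1438946_at, were nearly constant. All 14 measured probe sets of this group, from 7 of 21 genes, had the higher mean under RA, beside 73.1% of all measured probe sets. Of these 14, 5 are of the neurotrophin receptor Ntrk2, with log2 fold changes of 0.02 to 0.19 and no call.

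Among phosphatases, Inpp5f was called lower by 1 probe set and not by another. The probe set 1447757_x_at, whose suffix marks probes that may bind other transcripts, had values of 6.67 to 7.20 for control and 6.59 to 6.88 for RA. Its means differed by -0.25 on the log2 scale (limma standard error 0.129 and adjusted p = 0.564). It lost its call without control 2, control 3, control 4 or RA 3. For the Inpp5f probe set 1433542_at this difference was 0.08 (standard error 0.176). Inpp4a, which degrades a product of PIP3, had 0.19 (standard error 0.137), and the 14 genes of this group hold no other measured probe set. Neither of the 2 probe sets of Inpp5d was measured.

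The other groups of the pathway held no call. Of the G protein beta subunits, which activate p110 beta and p110 gamma, Gnb4 had log2 fold changes of 0.15 and 0.17 from its probe sets and Gnb2 of 0.20 (standard error 0.119). Among kinases that make PIP2, Pip5k1b had log2 fold changes of -0.08 to 0.03 over 3 probe sets and Pip4k2a of 0.01 to 0.05 over 3. Only 2 of 47 probe sets of the kinases downstream of PIP3 were measured, Gsk3b with 0.17 (standard error 0.0963) and Sgk1 with 0.04 (standard error 0.325). Neither Pdpk1, Akt1, Akt2 nor Mtor had a measured probe set. Of the targets and brakes of Akt, 2 of 47 were measured, the mTOR inhibitor Ddit4 with 0.07 (standard error 0.104) and the Akt phosphatase Phlpp2 with -0.02 (standard error 0.0973).

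**Figure D4:**
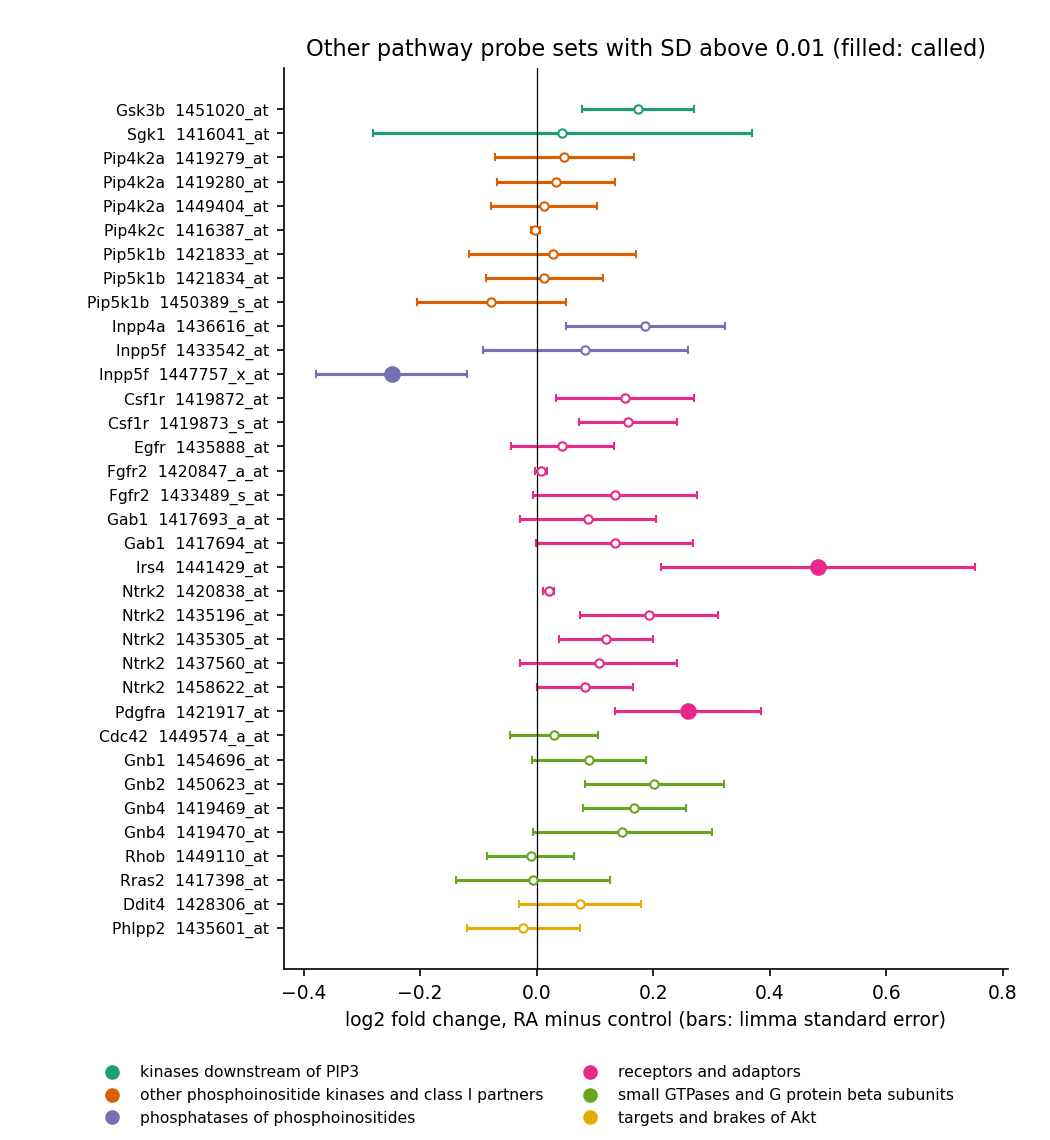
Log2 fold changes (x axis, RA minus control, n = 4 arrays per group, bars for limma's standard error) of the 35 measured probe sets of other pathway genes (y axis), coloured by group, with filled points for calls of the rank product. Irs4 at 0.48 and Pdgfra at 0.26 were called higher and 1 probe set of Inpp5f at -0.25 lower.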

How the data were processed

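Hippocampal RNA of 4 control and 4 RA samples was hybridised to Affymetrix whole-genome mouse arrays. The authors summarised the probes of each set with FARMS in R. The deposited values are on the log2 scale, while the scaling between arrays is not stated in the sources at hand. Because FARMS flattens probe sets without a common signal, an SD of at most 0.01 was counted as unmeasured. Samples were grouped by their labels, and the number of arrays limits the precision.

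The 64 control probe sets of the manufacturer were set aside, which left 45037. Of these, 34945 name 1 gene, 932 several and 9160 none, by the platform annotation. Subunit genes were matched by that symbol, and the other genes by symbols updated to the assembly GRCm38.p6. The rank product named in the Methods was written in Python 3.11.15 (numpy 2.4.6) with 100 permutations, each shuffling every array, and a threshold of 0.05 per direction. In simulated data with spreads taken from these arrays most of its calls were of unchanged probe sets, so the threshold is not read as an error rate. limma 3.58.1 in R 4.3.3 gave log2 fold changes with standard errors, and p-values adjusted by Benjamini-Hochberg. Both were tested on simulated data. Exact permutation tests were 2-sided.

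The subunits, the 6 groups of pathway genes and the 9 marker lists were chosen with earlier results of these data known. Named genes are all subunits, the called pathway genes, the 2 genes with the largest SD in each group without a call, and the 3 genes most like each measured subunit. Inpp4a, Ntrk2, the unmeasured pathway genes and the marker genes were named after their values were seen, and the spiked-in controls were examined then too. Alternatives were measured probe sets only, quantile normalization, a filter on low means, array medians set to 0, a threshold of 0.01, limma, the methods' t-test, a replicate block and leaving out each array.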

Additional observations from a re-analysis of the deposited data

Results flagged for a closer look

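The choroid plexus markers of the control group stand out because control 3, with a mean deviation of 1.82, lay far from the other control arrays, the lowest of which was at -1.16. Its distance to the nearest array was 0.970 of the range of the group. This was the only array flagged among 28 groups of values examined. By chance, the limit of the flag is passed in about 1 in 20 groups, a rate that is not that of the value 0.970. The same markers were also high in RA 3 and RA 4, with mean deviations of 1.17 and 1.58. The Pik3cd value of control 3 was the highest of all arrays, and Pik3cd had a log2 fold change of -0.60 without it.

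The spiked-in hybridisation controls lie outside the comparison of genes and stand out because their mean deviation was higher under RA, by 0.129 on the log2 scale. The part of these controls in the Pik3cd and Pik3r1 values was not tested beyond the covariate fit given above.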

How the results depend on the processing

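The Pik3cd probe set was called lower in every rank product fit, in the main fit also at a threshold of 0.01. In the fit of the 3758 measured probe sets (17 lower and 3 higher calls in all) its estimated proportion of false positives was 0.0292. It was also called without any 1 array. The family was chosen by this value, so the repeated calls on the same arrays are no separate support for it. limma, limma with the replicate number as a block and the methods' t-test after Benjamini-Hochberg adjustment called 0 subunit probe sets lower and 0 pathway probe sets in either direction, while the methods' t-test without adjustment gave 4 subunit probe sets lower, of which all but that of Pik3cd were nearly constant, and 10 pathway probe sets higher and 6 lower. Without any 1 array, 0 to 1 subunit probe sets were called higher (Pik3r1, without control 1), 0 to 7 pathway probe sets higher (7 without control 1, 5 without control 4) and 0 to 1 lower. A threshold of 0.01 and the fit of measured probe sets left 0 pathway calls in both directions, and the filter on low means 0 higher. Quantile normalization and subtraction of array medians kept these counts. The log2 fold changes of -0.67 for Pik3cd and 0.16 for Pik3r1 moved by more than 1 SD only with the hybridisation controls as a covariate (-0.45 and 0.026), and were equal with the replicate block. The replicate numbers are no pairing by design, and the deviations of arrays of the same number correlated between -0.393 and 0.448. The cause of these changes was not tested. With 4 arrays per group and 19 of 21 subunit probe sets constant, a difference in 5 of the 7 genes was not detectable.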

Other observations

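Of the protein-coding genes directly next to Pik3cd in GRCm38.p6, examined after its values were seen, only Clstn1 was measured, and it was not called. Clstn1, a neuronal cell surface protein, has 1 measured probe set, with a control mean of 10.19 ± 0.189 and an RA mean of 10.22 ± 0.0546 (SD, n = 4 each), which differ by 0.04 (standard error 0.0943). The other probe set of Clstn1 and the 3 of Tmem201 on the other side were nearly constant. Of the genes next to Pik3r1, Slc30a5 and Cd180, no probe set was measured.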
